A study of Mus musculus with 6 samples.

Results

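Cholesterol and fatty acid synthesis was followed through 32 genes of the pathway in mouse erythroid progenitors. The genes were listed by name, and each stood for the single-symbol probe set with the highest mean log2(intensity + 16) over the 6 arrays, a choice that did not use the difference between the groups. The platform annotation gave such a probe set for 31 of the 32, and Acat2, the cytosolic thiolase of the first step, was not analysed here. The 31 genes were set against all 18193 genes that had a single-symbol probe set. They comprised 6 enzymes from acetoacetyl-CoA to farnesyl diphosphate, 11 enzymes from squalene formation to cholesterol, 5 genes that control the SREBP factors, the sterol carrier Stard4, and 8 genes of fatty acid synthesis and desaturation.

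The study compared 3 knockout mice (Bcl11a fl/fl EpoR-Cre+) with 3 control mice (Bcl11a +/+), all female and 6 weeks old, with 1 Affymetrix array per mouse. CD71+Ter119+ cells were sorted from bone marrow, and EpoR-Cre places the Cre recombinase under the erythropoietin receptor gene, a design meant to delete the floxed Bcl11a gene in the red cell lineage. Bcl11a had 7 probe sets with changes from -0.40 to 0.32, 5 below 0 and 2 above, and none passed (limma adjusted p between 0.304 and 0.950). Its brightest had intensities of 1286, 1419 and 1190.1 in the knockouts, against 1475, 1553 and 1450 in the controls, and whether any of the 7 lies in the deleted part was not checked. The controls are not labelled with Cre, and effects of Cre, of the altered receptor allele or of strain background cannot be told apart from that of Bcl11a. Each array came from a separate animal by its label.

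Cells build cholesterol from acetyl-CoA through mevalonate, farnesyl diphosphate, squalene and lanosterol, and they build saturated and monounsaturated fatty acids from the same acetyl-CoA through malonyl-CoA. Both routes are driven by the SREBP transcription factors. When sterols are scarce, SCAP escorts SREBP from the endoplasmic reticulum to the Golgi, where it is cut to its active form, and when sterols are plentiful the INSIG proteins hold the complex back. Developing red cells have a large demand for membrane lipid while they divide and later shed membrane as they mature.

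The promoters of this pathway are known for SREBP sites that sit near sites for the factors NF-Y and Sp1. The RefSeq promoter windows of the mouse build GRCm38.p6, which run from 250 bases before to 50 bases after a transcript start, held 25 of the 32 genes in 33 windows, some of which overlap. Fads1, Fdft1, Fdps, Scd1, Scd2, Sqle and Stard4 had no window. The letters TCACNCCAC, a core of the SREBP site, were found on either strand in 1 of the 33 windows (3.03%), that of Hmgcs1, and in 1.24% of all 32851 windows. CCAAT, the core of the NF-Y site, was in 21 windows (63.6%), against 37.4% of all windows. GGGCGG, the Sp1 core, was in 25 windows (75.8%), against 35.7% of all. CACGTG, the E-box that SREBP-1 can also bind, was in 6 (18.2%), against 7.15% of all. A match is a description of the letters, not a measured binding site.

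The 250 bases before the start are shown for 4 genes, all on the forward strand and written 5′ to 3′, with matches to the 4 motifs in capitals. Hmgcs1 is shown as the only one of the 25 genes with a window in which the SREBP core was found. Dhcr7 and Elovl6 are shown because they had the lowest log2 changes of the cholesterol enzymes and of the fatty acid genes. Insig1 is shown as the feedback sensor. The Hmgcs1 stretch lies at chr13:119690101-119690350, that of Dhcr7 at chr7:143822917-143823166 (the first of its 3 windows), that of Insig1 at chr5:28071162-28071411 and that of Elovl6 at chr3:129532136-129532385.
Hmgcs1: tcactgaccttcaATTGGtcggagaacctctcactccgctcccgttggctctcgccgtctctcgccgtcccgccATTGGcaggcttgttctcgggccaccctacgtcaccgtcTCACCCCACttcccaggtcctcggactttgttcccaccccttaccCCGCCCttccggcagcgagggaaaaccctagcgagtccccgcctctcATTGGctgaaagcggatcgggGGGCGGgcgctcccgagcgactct
Dhcr7: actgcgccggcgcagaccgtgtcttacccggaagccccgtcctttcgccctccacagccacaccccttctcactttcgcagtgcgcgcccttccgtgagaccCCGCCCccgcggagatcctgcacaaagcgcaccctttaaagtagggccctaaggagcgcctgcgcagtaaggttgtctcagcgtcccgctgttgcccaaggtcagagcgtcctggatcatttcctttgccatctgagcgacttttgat
Insig1: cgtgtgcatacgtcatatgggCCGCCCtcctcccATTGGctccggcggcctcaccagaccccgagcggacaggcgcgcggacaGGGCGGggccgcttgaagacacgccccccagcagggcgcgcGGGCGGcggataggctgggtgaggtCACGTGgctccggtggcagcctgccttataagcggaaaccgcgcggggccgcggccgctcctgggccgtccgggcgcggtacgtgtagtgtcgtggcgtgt
Elovl6: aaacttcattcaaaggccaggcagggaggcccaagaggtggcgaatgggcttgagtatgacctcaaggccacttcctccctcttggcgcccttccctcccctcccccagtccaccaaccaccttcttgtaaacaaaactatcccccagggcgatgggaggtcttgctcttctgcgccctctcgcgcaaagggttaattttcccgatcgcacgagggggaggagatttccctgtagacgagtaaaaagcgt
In Hmgcs1 the SREBP core lay 137 to 129 bases before the start, with CCAAT on the reverse strand at 3 places and GGGCGG on either strand at 2. Insig1 held 1 reverse CCAAT, 3 GGGCGG matches and the E-box 101 to 96 bases before its start. The Dhcr7 stretch held 1 reverse GGGCGG, while its other two windows, not shown, held the E-box in one, and CCAAT at 2 places and GGGCGG at 3 in the other. The Elovl6 stretch held none of the 4 motifs. In these stretches no match of one motif overlapped a match of another.

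None of the 31 genes passed the test of knockout against control (limma, Benjamini-Hochberg adjustment over all 45037 probe sets, adjusted p threshold of 0.05). Over all probe sets 0.14% rose and 0.00666% fell, and at that rate 31 genes hold few calls or none. An unadjusted p under 0.05 was found for 3 of the 31 genes, Dhcr7, Scap and Scd2, against 12.7% of all genes, and all 3 had changes below 0. With an intensity trend and robust moderation of the variances, 1 of the 31 passed, Scd2, against 4.22% of all genes. In 5 of the 31 genes (16.1%) the groups did not overlap, against 21.6% of all genes. In each of these 5 the knockout values were the lower ones, an arrangement seen in 9.23% of all genes, while the opposite one was seen in 12.3%. Among genes at least as bright as the dimmest of the 31, the groups did not overlap in 29.2%. The knockout values were the lower ones in 12.3% of these genes and the higher ones in 16.9%, and 15.4% had an unadjusted p under 0.05.

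The changes were small. Log2 changes, on the scale of log2(intensity + 16), lay between -0.54 for Elovl6 and 0.37 for Mvk, with 21 below 0 and 10 above and a median of -0.09, while the median over all genes was -0.0012 and 50.2% of them lay below 0. Without knockout mouse 2 the median of the 31 was -0.05, with 17 below 0 and 14 above. In 24 of the 31 the change was smaller than 0.25 in size. This held for 70.8% of all genes and for 76.8% of those at least as bright as the dimmest of the 31. The 95% interval of the change, not adjusted for the number of genes, stayed between -1 and 1 in 29 of the 31, and those 29 intervals therefore exclude a 2-fold difference in log2(intensity + 16) terms. This scale understates changes of dim probe sets. The exceptions were Mvk, with an interval from -0.55 to 1.30, and Elovl6, with one from -1.10 to 0.02. For comparison, 89.7% of all genes had an interval within those limits, and 96.1% of the genes at least as bright as the dimmest of the 31.

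**Figure D1:**
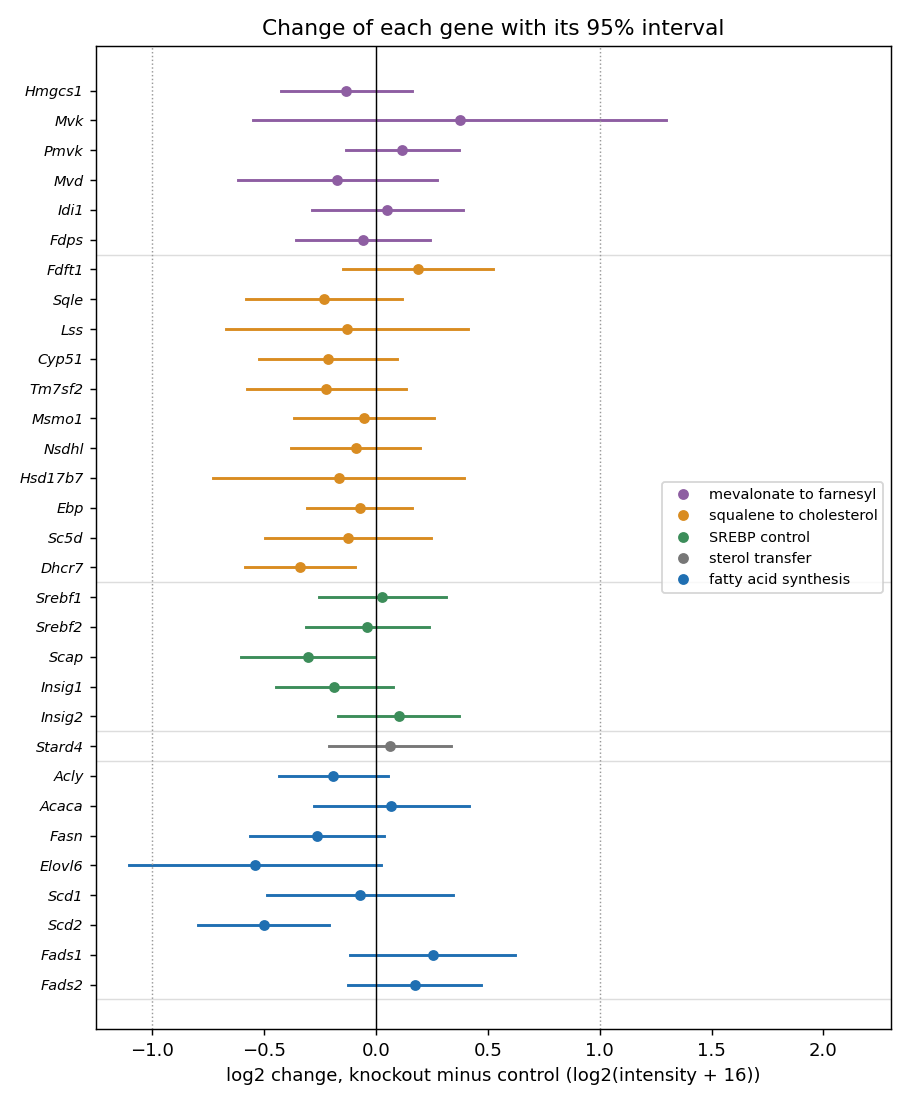
Log2 change of each of the 31 genes, knockout minus control, on the horizontal axis (log2(intensity + 16)), with the 95% interval of the fit as a line; dotted lines mark -1 and 1. Genes run down the page in pathway order and colours mark the 5 groups; only the intervals of Dhcr7, Scap and Scd2 leave out 0, and none of the 31 passed after adjustment.

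The arrays were alike in overall level, with median intensities between 67.5 and 70.9, and no array stood apart. There were no detection calls. Tfrc, the gene of CD71, stood at percentile 99.7 of all probe sets, and the erythroid genes Slc4a1, Alas2 and Klf1 at percentiles 99.9, 100 and 98.2. Genes of other cells were also bright, and S100a8, a neutrophil gene, was the brightest of all probe sets on each of the 6 arrays. Summed intensities of 8 neutrophil markers were 165863 to 173350 in the knockouts and 179524 to 180351 in the controls, with 7 of 8 changes below 0. The 6 pre-B cell markers summed to 8594 to 11719 in the knockouts and 11613 to 13890 in the controls, with all 6 changes below 0. The 5 basophil and mast cell markers summed to 4019 to 5678 in the knockouts and 6191 to 6552 in the controls, again with all changes below 0. The 6 erythroid genes summed to 73168 to 79571 in the knockouts and 60793 to 72569 in the controls, and 4 of their 6 changes were above 0. Macrophage markers (7) summed to 9827 to 10553 in the knockouts and 8696 to 9942 in the controls, 5 of 7 changes above 0. The 3 T cell markers summed to 663 to 888 in the knockouts and 672 to 691 in the controls, with 3 of 3 changes above 0. The 4 megakaryocyte markers summed to 1361 to 2350 in the knockouts and 1557 to 1958 in the controls, with 2 of 4 above 0. No marker was at 0. In bulk samples such as these, fewer cells of a type and less RNA per cell cannot be told apart. The part of other cells in the values of the lipid genes was not tested.

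The first stage, from acetoacetyl-CoA to farnesyl diphosphate, showed no common direction. Of its 6 measured enzymes 3 had changes above 0 and 3 below, with a median of -0.0045. In none did the groups stand apart in the brightest probe set. Hmgcs1, the HMG-CoA synthase, had intensities of 802, 720 and 753 in the knockouts, against 728, 873 and 907 in the controls. The lowest control fell among the knockout values, and the change was -0.13 ± 0.12 (SE, n = 3 against 3, limma adjusted p = 0.705). All 5 probe sets of Hmgcs1 had changes below 0. They ranged from -0.71 to -0.13, and the change of -0.71 belonged to the dimmest, at 27.6, 22.4 and 60.8 in the knockouts and 68.8, 69.0 and 61.4 in the controls.

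Fdps, which makes farnesyl diphosphate for sterols, dolichol and protein prenylation, averaged 790.1 ± 70.3 in the knockouts and 825 ± 86.4 in the controls (SD, n = 3 each). Its change was -0.06, with a 95% interval from -0.36 to 0.24. Idi1, the isomerase that forms dimethylallyl diphosphate, averaged 470.1 ± 55.2 in the knockouts and 453 ± 52.2 in the controls, a change of 0.05. Its second probe set had a change of 0.34 (limma adjusted p = 0.473), also without passing.

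Mvk, Pmvk and Mvd turn mevalonate into isopentenyl diphosphate, before the steps of Idi1 and Fdps. Mvk, mevalonate kinase, was the least precisely measured of the 31. It had 188, 315 and 126 in the knockouts, against 151, 95.5 and 220.1 in the controls. The 6 values ran from 95.5 to 315, and both groups were widely spread and overlapped. Its change was 0.37 ± 0.38 (SE, limma adjusted p = 0.741), and its second probe set had one of 0.05. Pmvk, phosphomevalonate kinase, averaged 206 ± 16.6 in the knockouts and 188 ± 8.90 in the controls, a change of 0.12. Mvd, the decarboxylase that makes isopentenyl diphosphate, averaged 61.1 ± 15.9 in the knockouts and 70.05 ± 10.4 in the controls, a change of -0.17, near the median intensity of the arrays.

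The enzymes from squalene formation to cholesterol leaned to lower values in the knockouts, without a call. Of the 11, 10 had changes below 0 and 1 above, with a median of -0.13. Much of this lean came with 1 mouse. Knockout mouse 2 held the lowest of the 6 values in 9 of the 11 enzymes, and its median over the 11 was -0.37 relative to the control mean, against -0.05 and -0.04 in knockout mice 1 and 3 and -0.06, -0.02 and 0.01 in control mice 1, 2 and 3. Without knockout mouse 2, 7 of the 11 changes were below 0 and their median was -0.05, and without knockout mouse 3 it was -0.24. Over the 17 enzymes of both stages the median was -0.13 with all mice, -0.017 without knockout mouse 2 and -0.07 without control mouse 3. The summed pre-B cell markers of that mouse, at 11719, were the highest of the 3 knockouts, and its erythroid sum of 77763 lay between the other two. Whether cell composition or RNA handling played a part in its values was not tested.

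**Figure D2:**
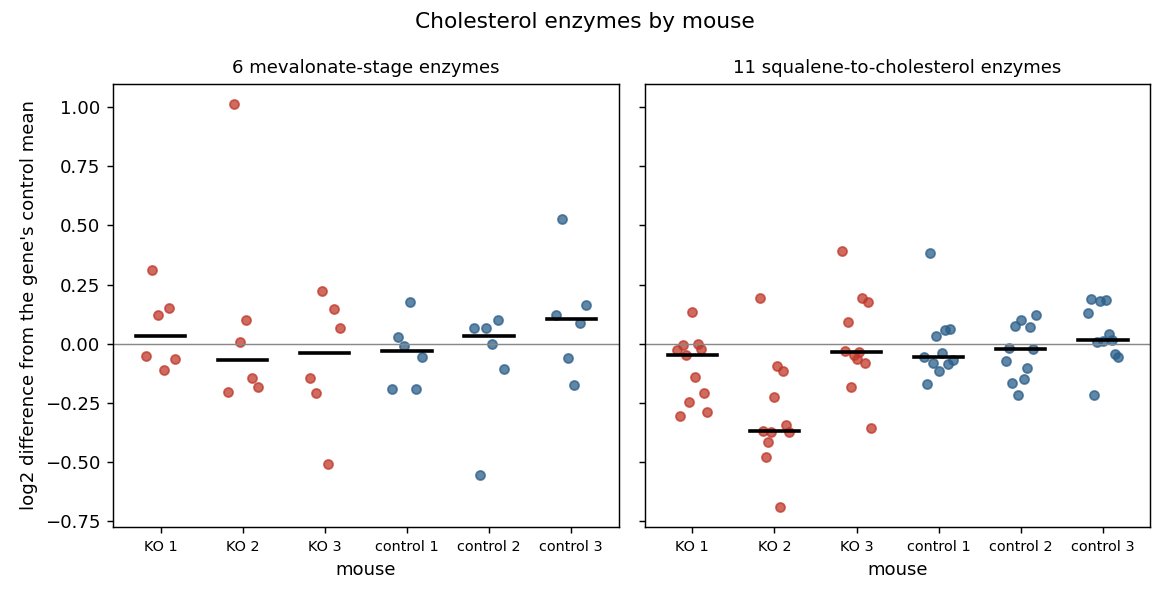
Log2 difference of each enzyme from its control mean (vertical axis, log2(intensity + 16)) in each mouse (horizontal axis), with 6 mevalonate-stage enzymes on the left and 11 squalene-to-cholesterol enzymes on the right; points are genes and black bars are medians. In the right panel the median of knockout mouse 2 is -0.37, while those of the other 5 mice lie between -0.06 and 0.01.

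Fdft1, the squalene synthase that commits farnesyl diphosphate to sterols, was the exception in direction. It had 639, 745 and 858 in the knockouts, against 625, 617 and 714 in the controls, a change of 0.19 ± 0.14 (SE, limma adjusted p = 0.638). The groups overlapped, and its other 3 probe sets had changes from 0.04 to 0.18.

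Sqle, the squalene epoxidase that is often rate-limiting after mevalonate, had 259, 247 and 316 in the knockouts, against 286, 319 and 371 in the controls. The highest knockout lay above the lowest control, and the change was -0.23 ± 0.15 (SE, limma adjusted p = 0.562). Lss, which closes the ring to lanosterol, averaged 80.1 ± 19.2 in the knockouts and 89.5 ± 25.6 in the controls, a change of -0.13. Of its other probe sets, both dim, one had a change of 0.13 and the other of -0.30, the latter without overlap of the groups.

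The removal of the methyl groups of lanosterol is shared by Cyp51, Tm7sf2, Msmo1, Nsdhl and Hsd17b7. Cyp51, the lanosterol demethylase, had 157, 118 and 142 in the knockouts, against 153, 172 and 164 in the controls. Its knockout mouse 1 reached into the control range, and the change was -0.21 ± 0.13 (SE, limma adjusted p = 0.546). One of its 2 other probe sets had a change of 0.20. Tm7sf2, a sterol reductase, averaged 81.3 ± 11.2 in the knockouts and 97.7 ± 15.6 in the controls, a change of -0.22. Msmo1, the methyl oxidase, averaged 280 ± 37.1 in the knockouts and 290 ± 22.7 in the controls, a change of -0.05, and its dim second probe set had one of 0.20. Nsdhl, the decarboxylating dehydrogenase, averaged 565.5 ± 21.4 in the knockouts and 606 ± 74.2 in the controls, a change of -0.09.

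Hsd17b7 is the keto reductase of the same complex. Its brightest probe set had 140.1, 80.8 and 163 in the knockouts, against 147, 130 and 145 in the controls, so that knockout mouse 2 was low while knockout mouse 3 was the highest of the 6. The change was -0.17 ± 0.23 (SE, limma adjusted p = 0.820). In the other 3 probe sets all knockout values were below all control values, with changes of -0.44, -0.40 and -0.33 and limma adjusted p between 0.299 and 0.320. The brightest of these had 85.2, 109 and 114 in the knockouts, against 143, 132 and 159 in the controls.

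The last steps are the isomerase Ebp, the desaturase Sc5d and the reductase Dhcr7. Ebp had the smallest SE of the 31 (0.098), with 832 ± 27.9 in the knockouts and 877 ± 48.3 in the controls (SD, n = 3 each), a change of -0.07 and an interval from -0.31 to 0.16. Sc5d had 313, 283 and 413 in the knockouts, against 381, 359 and 353 in the controls. Its knockout mice 1 and 2 lay below the controls and knockout mouse 3 above them, and the change was -0.13. One dim probe set of Sc5d had a change of 0.09.

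Dhcr7, which makes cholesterol from 7-dehydrocholesterol, was the only cholesterol enzyme whose groups did not overlap in its brightest probe set. Some other probe sets of Hsd17b7, Lss and Hmgcs1 also had all knockout values below all control values. Dhcr7 had 79.7, 74.3 and 75.3 in the knockouts, against 95.6, 111 and 96.6 in the controls. All 3 knockout values lay below all 3 control values, and the ratio of mean intensities was 0.755. The change was -0.34 ± 0.10 (SE), with an interval from -0.59 to -0.09, and it did not pass (unadjusted p = 0.0146 and limma adjusted p = 0.286). The two-sided exact permutation p was 0.1, the smallest that 3 mice against 3 allow. Its intensity was near the array medians of 67.5 to 70.9, and the deposited values do not say whether it was above background. The same limit holds for the brightest probe sets of Mvd, Lss, Tm7sf2 and Fads2. They stood at percentiles 49.3, 53.9, 55 and 52.9 of all probe sets, and Dhcr7 at 54.9. On leaving out single mice the change of Dhcr7 was between -0.37 and -0.28.

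Among the genes that control the pathway, the SREBP factors themselves had changes near 0. Srebf1, whose product chiefly drives fatty acid genes, had 738, 739 and 906 in the knockouts, against 752, 773 and 802 in the controls. The change was 0.03 with an interval from -0.26 to 0.31. After quantile normalization it was -0.019, so its sign depends on the scaling. Srebf2, whose product chiefly drives cholesterol genes, averaged 451 ± 40.3 in the knockouts and 463 ± 32.3 in the controls, and both of its probe sets had a change of -0.04. The interval of the brighter one ran from -0.32 to 0.24. These are transcript levels, and the cutting of SREBP, through which it is mainly controlled, is not measured by arrays.

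Scap, the escort of SREBP, had 841, 795 and 668 in the knockouts, against 893, 1006 and 951 in the controls. The knockout values were all lower, and the change was -0.31 ± 0.12 (SE), without passing (unadjusted p = 0.0450 and limma adjusted p = 0.391). Its second, dim probe set went the other way, with 41.7, 48.1 and 40.7 in the knockouts and 29.5, 38.5 and 24.9 in the controls, a change of 0.35 in which the groups did not overlap either. With the mean of both probe sets the change of Scap was 0.022.

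Insig1, an SREBP target that closes the feedback loop, had 335, 356 and 352 in the knockouts, against 363, 397 and 437 in the controls. Again all knockout values lay below all control values, by a smaller margin, and the change was -0.19 ± 0.11 (SE, limma adjusted p = 0.536). Insig2, its relative that does not depend on SREBP, averaged 300.2 ± 19.7 in the knockouts and 279 ± 24.5 in the controls, a change of 0.10. All 3 of its probe sets had changes above 0, from 0.08 to 0.15, and the groups overlapped in the brightest.

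Stard4, which carries cholesterol between membranes, had a change of 0.06 in its brightest probe set, which averaged 560 ± 26.0 in the knockouts and 537 ± 55.3 in the controls. Its other 2 probe sets had changes of 0.50 and 0.20. The one at 0.50 had 228, 231 and 162 in the knockouts and 117, 150 and 157 in the controls, with no overlap and a limma adjusted p of 0.344.

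The 8 fatty acid genes had changes from -0.54 to 0.25 with a median of -0.13, and 5 lay below 0 and 3 above. Control mouse 1 held the lowest control value in 6 of the 8. Among the controls its erythroid sum, 72569, was the highest and its pre-B cell sum, 11613, the lowest, and the part of this in the fatty acid values was not tested. Without it the median was -0.20, and without knockout mouse 1 it was -0.08, with 4 below 0 and 4 above. Scd2, a stearoyl-CoA desaturase that makes monounsaturated fatty acids, had 880, 890.5 and 1023 in the knockouts, against 1190.2, 1444 and 1345 in the controls. The groups were separated by a gap between 1023 and 1190.2. The change was -0.50 ± 0.12 (SE), with an interval from -0.79 to -0.21 and a ratio of means of 0.702. It did not pass in the fit without a trend (unadjusted p = 0.00526 and limma adjusted p = 0.218). It passed with an intensity trend and robust moderation (adjusted p = 0.00995) and among the brightest 50% of probe sets (adjusted p = 0.0480). On leaving out single mice the change stayed between -0.58 and -0.44, with limma adjusted p between 0.233 and 0.417. The 2 other probe sets of Scd2 differed, the dim one with a change of -0.78 and no overlap (limma adjusted p = 0.170), the other with one of 0.04. Beside these values stand those of the pre-B cell markers, which were also lower in the knockouts. Among them Vpreb1, a surrogate light chain, had a change of -1.19 and Vpreb3 one of -0.56, neither of which passed in the fit without a trend (limma adjusted p = 0.168 and 0.259). Like Scd2, both passed with an intensity trend and robust moderation (adjusted p = 0.0202 and 0.0181). The remaining pre-B cell markers, Cd79a, Ebf1, Pax5 and Cd79b, had changes of -0.37, -0.36, -0.19 and -0.16. Their groups overlapped, and they passed in neither fit. Changes were also below 0 in 5 of 5 basophil and mast cell and 7 of 8 neutrophil markers. They were above 0 in 4 of 6 erythroid, 5 of 7 macrophage and 3 of 3 T cell markers. Mcpt8, a basophil marker, had -0.42 and passed with a trend and robust moderation (adjusted p = 0.0493). Knockout mouse 3 had the highest Scd2 of the knockouts and the lowest pre-B cell sum, 8594. Control mouse 1 had the lowest of both among the controls. The part of these markers in the values of Scd2 was not tested.

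Scd1, the other stearoyl-CoA desaturase of the list, had 1028, 1542 and 1259 in the knockouts, against 1176, 1433 and 1382 in the controls. The knockouts held both the lowest and the highest value, and the change was -0.07 ± 0.17 (SE, limma adjusted p = 0.904). Its dimmer probe set had 108, 110.2 and 124 in the knockouts and 133, 161 and 159 in the controls, a change of -0.36 without overlap (limma adjusted p = 0.315).

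Elovl6, which lengthens palmitate to stearate, had the lowest change of the 31. It had 369, 292 and 250.1 in the knockouts, against 320.2, 523 and 521 in the controls. The groups overlapped through control mouse 1, which lay below knockout mouse 1. The change was -0.54 ± 0.23 (SE, limma adjusted p = 0.418). Without control mouse 1 it was -0.77 (limma adjusted p = 0.258). All 3 probe sets of Elovl6 had changes below 0, and in the other 2, at -0.66 and -0.41, the groups did not overlap (limma adjusted p = 0.329 and 0.418). The second had 209, 210.5 and 139 in the knockouts and 229, 371 and 312 in the controls.

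Upstream of the elongation, Acly, which makes cytosolic acetyl-CoA from citrate, had 2047, 1983 and 2174 in the knockouts, against 2211, 2424 and 2454 in the controls. The groups did not overlap, by a margin of 2174 against 2211. The change was -0.19 ± 0.10 (SE, limma adjusted p = 0.497). Of its 5 other probe sets 3 had changes below 0 and 2 above, at 0.03 and 0.10. Fasn, the fatty acid synthase, had 692, 633 and 633 in the knockouts, against 686, 882 and 802 in the controls. Only control mouse 1 fell within the knockout range, and the change was -0.26 ± 0.12 (SE, limma adjusted p = 0.453). Acaca, the acetyl-CoA carboxylase that sets the pace of the route, averaged 402 ± 42.0 in the knockouts and 384 ± 53.3 in the controls, a change of 0.07. Its second, dim probe set had one of 0.36.

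The desaturases of polyunsaturated fatty acids had changes above 0 in their brightest probe sets, while the probe sets of Fads2 differed in sign. Fads1, the delta-5 desaturase, had 579, 557 and 743 in the knockouts, against 571, 456 and 536 in the controls, a change of 0.25 ± 0.15 (SE, limma adjusted p = 0.552). The groups overlapped through control mouse 1. Its second probe set had 336, 293 and 309 in the knockouts, against 215, 179 and 211 in the controls, without overlap. That change was 0.60 ± 0.12 (SE), which had the lowest p of all 72 probe sets of these genes (unadjusted p = 0.00175). It did not pass in the fit without a trend (limma adjusted p = 0.158) and passed with an intensity trend and robust moderation (adjusted p = 0.0137), a fit that called 3.21% of all probe sets. Fads2, the delta-6 desaturase, averaged 84.9 ± 7.45 in the knockouts and 73.7 ± 9.55 in the controls, a change of 0.17, and its 2 other probe sets had changes of -0.31 and -0.26. The one at -0.31 was nearly as bright as the one used, with a mean log2(intensity + 16) of 6.565 against 6.568. Both were near the median intensity of the arrays. With the mean of its probe sets the change of Fads2 was -0.14.

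**Figure D3:**
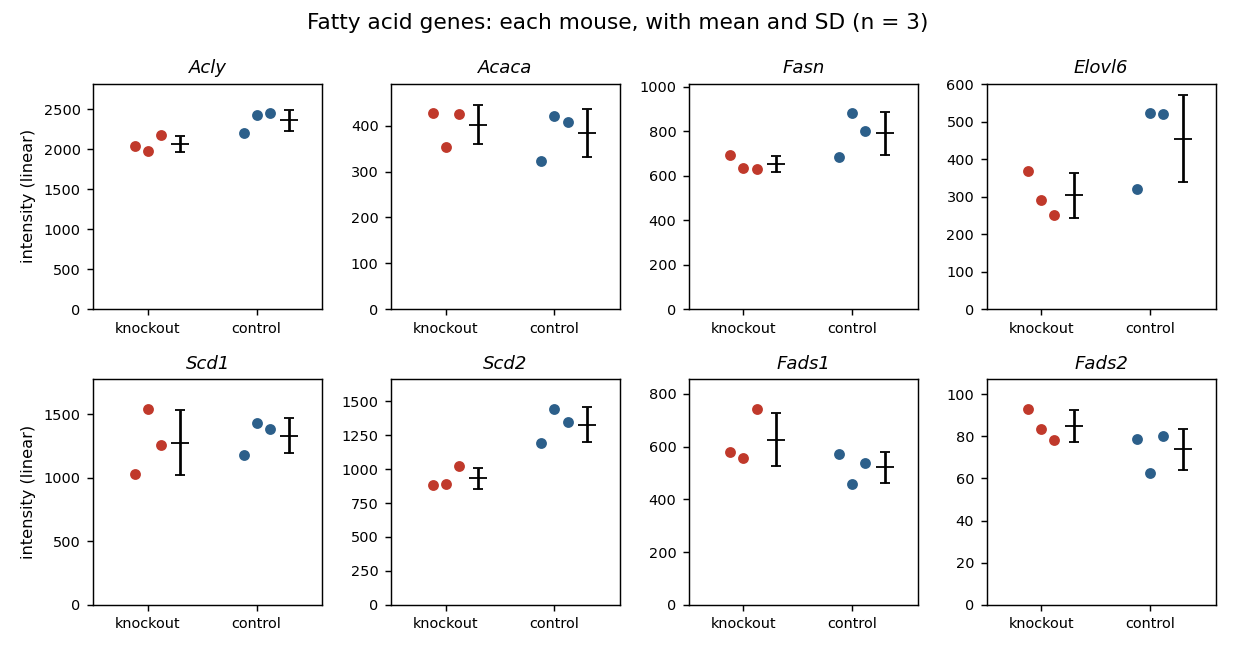
Linear intensity of the 8 fatty acid genes (vertical axes, each from 0) in the 3 knockout mice (left, red) and the 3 control mice (right, blue), with the mean and SD of each group beside the points. Acly and Scd2 have no overlap between groups, with Scd2 at 880 to 1023 in the knockouts and 1190.2 to 1444 in the controls; Elovl6 overlaps through control mouse 1.

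The 31 genes had 72 single-symbol probe sets, of which 43 had changes below 0 and 29 above, and none passed (limma, lowest adjusted p = 0.158). In 15 all knockout values were lower and in 3 all were higher, against 8.91% and 10.6% of all probe sets, and 19.5% in either direction. The 15 include repeated probe sets of Hsd17b7, Elovl6 and Scd2, so they are not 15 separate genes and are not independent. One of the 15 is a dim probe set of Fdps at the floor of the table, which leaves 14. Among the 22 genes with more than 1 probe set, 8 had probe sets whose changes differed in sign. That Fdps probe set was listed at 1.00 in all 3 knockouts and at 1.20, 6.22 and 4.16 in the controls, values that carry no order.

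**Figure D4:**
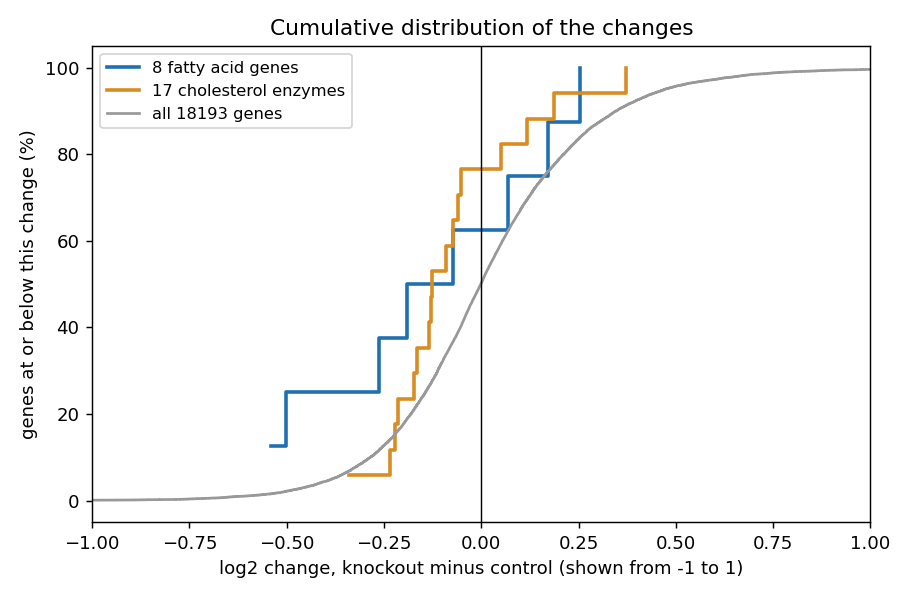
Percent of genes (vertical axis) with a log2 change, knockout minus control, at or below the value on the horizontal axis, for the 8 fatty acid genes, the 17 cholesterol enzymes of both stages and all 18193 genes. The 2 lists have medians of -0.13 each and the whole has one of -0.0012; without knockout mouse 2 the median of the cholesterol enzymes is -0.017.

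Around these genes stood 46 further genes of lipid handling, of which 38 were measured, with 16 changes above 0, 22 below and a median of -0.04. None passed (limma). An unadjusted p under 0.05 was found for 7 of the 38, against 12.7% of all genes, and 3 of the 38 passed with an intensity trend and robust moderation, against 4.22% of all genes. In 11 of the 38 (28.9%) the groups did not overlap, against 21.6% of all genes.

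The genes that process or degrade SREBP and its partners, 8 measured, included 2 of those 3. Rnf139, the ubiquitin ligase TRC8 of the endoplasmic reticulum, had 5538, 5914 and 6527 in the knockouts, against 4259, 3479 and 4007 in the controls. The change was 0.61 ± 0.12 (SE), with all knockout values above all control values. It did not pass in the fit without a trend (limma adjusted p = 0.166). Its adjusted p was 0.00117 with an intensity trend and robust moderation. Aup1, which recruits ubiquitin enzymes to the same membrane, had a change of 0.36 ± 0.10 (limma adjusted p = 0.265, and 0.0305 with a trend and robust moderation). Mbtps1, the first SREBP protease, had one of 0.20 (limma adjusted p = 0.557). Of the 6 erythroid markers, 4 had changes above 0 and 2 below. Gata1 had a change of 0.70 (limma adjusted p = 0.216, and 0.00857 with a trend and robust moderation), Klf1 one of 0.65 (limma adjusted p = 0.273, and 0.0738 with a trend and robust moderation) and Tfrc one of 0.38 (limma adjusted p = 0.311, and 0.0156 with a trend and robust moderation). Slc4a1 had a change of 0.21, Alas2 of -0.06 and Epor of -0.14, which passed in neither fit. The relation of these markers to Rnf139 and Aup1 was not tested.

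For sterol uptake, storage and efflux 9 genes were measured. Mylip, the ubiquitin ligase IDOL that removes lipoprotein receptors, had 3061, 3547 and 3572 in the knockouts, against 2652, 2445 and 2580 in the controls, all knockout values higher. Its change was 0.40 ± 0.11 (SE, limma adjusted p = 0.243, and 0.0114 with a trend and robust moderation). Abca1, the exporter of cellular cholesterol, had 566, 905 and 742 in the knockouts, against 454, 553 and 424 in the controls, also without overlap, with a change of 0.60 ± 0.20 (limma adjusted p = 0.316). Abcg1, a related exporter, had a change of -0.14 (limma adjusted p = 0.767).

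Of 14 further genes of fatty acid synthesis, elongation and activation, all measured, 10 had changes below 0 and 4 above. Acsl3, an acyl-CoA synthetase, had 132, 106 and 130.3 in the knockouts, against 162, 197 and 169 in the controls, a change of -0.47 ± 0.13 without overlap (SE, limma adjusted p = 0.251). Hsd17b12 and Elovl7, a reductase and an elongase of long-chain fatty acids, had changes of -0.28 and -0.31, also without overlap (limma adjusted p = 0.316 and 0.387). Among 7 further sterol and isoprenoid enzymes the smallest p belonged to Fntb, a subunit of protein farnesyltransferase, with a change of 0.40 (limma adjusted p = 0.479), followed by Pdss2 at -0.22 (limma adjusted p = 0.566) and Dhdds at -0.14 (limma adjusted p = 0.695), which build the tails of coenzyme Q and of dolichol.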

How the data were processed

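Per the labels' protocols, RNA came from a Trizol extraction and was labelled with biotin as cRNA for Affymetrix arrays. The authors deposited 1 table of intensities on a linear scale. The probe summary and array scaling are not stated in the labels. Between 775 and 874 values per array were exactly 1.00, and how low values were treated is unknown, which bears on dim probe sets. The precision is limited by having 3 mice per group.

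Probe sets were named from the platform annotation, updated through Entrez IDs to RefSeq symbols (34945 of 45037 with 1 symbol, 34741 of them matched). Intensities became log2(intensity + 16) with no further normalization, since array medians and interquartile ranges differed by at most 0.0567 and 0.0699 on the log2 scale. Knockout and control were compared over all probe sets in R 4.3.3 with limma 3.58.1 (eBayes after lmFit, two-sided), tested on simulated data. The simulation gave each probe set a residual spread drawn at random from all of them, with the changes placed in the brighter ones. There the test recovered 34% of log2 changes of 1 and 26% of those of -1. Of changes of 2 and -2 it recovered 78% and 80%. At that spread many 2-fold changes would be missed. The median SE was 0.125 over the 31 genes, against 0.161 over all probe sets, so the share missed among the 31 was not measured. Named are all listed genes, their other probe sets where the sign differed, and of each further lipid list the 3 genes with the smallest p. Values of further probe sets, and of marker genes beside a result, were chosen after they were seen. The genes, lists and tests were chosen with earlier results of these data known.

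The mouse numbers do not pair the mice (correlation of same-numbered deviations from the group means -0.04 to -0.01). Alternatives were 3 normalizations, pseudocounts of 1 and 64, array weights, a robust fit with an intensity trend, the brightest 50% of probe sets, averaging a gene's probe sets, the mouse number as a block, and leaving out each mouse.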

Additional observations from a re-analysis of the deposited data

How the results depend on the processing

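Under the 16 alternatives the 31 genes gave 495 values (Mvd was not among the brightest 50% of probe sets), of which 475 kept the direction and the side of the threshold and 18 changed sign. The other 2 were the calls of Scd2 among the brightest 50% and with an intensity trend and robust moderation, 1 fall each, and no alternative gave a rise. Srebf1 had -0.019 after quantile and -0.0036 after cyclic loess normalization. When the probe sets of a gene were averaged, Msmo1 had 0.075, Scap 0.022 and Fads2 -0.14. Leaving out single mice, the sign changed within these ranges: Idi1 -0.045 to 0.15, Fdps -0.12 to 0.022, Lss -0.24 to 0.062, Msmo1 -0.15 to 0.034, Nsdhl -0.16 to 0.0018, Hsd17b7 -0.35 to 0.096, Srebf1 -0.068 to 0.076, Srebf2 -0.094 to 0.034, Acaca -0.047 to 0.15 and Scd1 -0.22 to 0.071. The median of the 17 cholesterol enzymes ranged from -0.15 to -0.017 when single mice were left out, the latter without knockout mouse 2, and that of the fatty acid genes from -0.20 to -0.08.

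Over all probe sets the test gave 63 rises and 3 falls. A pseudocount of 1 gave 38 and 0, a pseudocount of 64 gave 508 and 50, and an intensity trend with robust moderation 1206 and 239. The brightest 50%, with 22519 probe sets tested, gave 708 and 145. Array weights and the mean of a gene's probe sets gave 5 falls each. The replicate block gave 14 rises and 0 falls, and moved no gene of the pathway past the threshold. Without single mice there were 27 to 41 rises and 0 to 1 falls. Of the further lipid genes, 1 rose with a pseudocount of 64 and 1 among the brightest 50% (Rnf139 in both), and 3 with a trend and robust moderation (Rnf139, Aup1 and Mylip). The cause of these differences was not tested.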
